A study of Homo sapiens with 15 samples.

Results

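The genes described here are the cancer-testis antigen families of H196, a non-neuroendocrine small cell lung cancer line, and their counterparts in MRC5, a lung fibroblast line. They were chosen by symbol: every gene whose symbol begins with MAGE, GAGE, XAGE, PAGE, CTAG, SPANX or RHOXF or names an SSX gene, and PRAME. This rule found 52 genes of the 17138 listed in the table of H196 or the table of MRC5. Of these, 49 are listed for H196 and 43 for MRC5, and 40 are listed for both. Poly(A)-selected RNA was sequenced from 15 libraries, 3 for each of 5 groups. H196_Mo and MRC5_Mo were H196 and MRC5 cells cultured separately. H196_Co were H196 cells co-cultured with MRC5, and MRC5_CoH196 and MRC5_CoH69 were MRC5 cells co-cultured with H196 or with H69, a neuroendocrine small cell lung cancer line. The labels name no other treatment in any group, and the partners grew for a week on either side of a transwell membrane. Each cell type is represented by 1 line, H69 itself was not analysed here, and nothing in the labels says that the 3 libraries of a group came from separate cultures, so p-values measure the spread between these libraries, which may be technical.

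Cancer-testis antigens are proteins made in the germ cells of the testis, and in placenta, that most normal adult tissues keep silent through DNA methylation of their promoters. Many tumors switch them back on, and because the testis presents few antigens to T cells, their peptides are seen as foreign and serve as targets for vaccines and T cell therapy. Most sit in multicopy clusters on the X chromosome, where recent duplication has left genes that differ by few or no bases.

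The 52 genes fall into groups by role. The 11 MAGEA and 3 MAGEB genes are type I MAGE genes, germline proteins that bind RING ubiquitin ligases and redirect what they modify. The 8 type II MAGE genes (MAGED1, MAGED2, MAGED4, MAGED4B, MAGEE1, MAGEF1, MAGEH1 and MAGEL2) share that MAGE homology domain but are used in many normal tissues and are not cancer-testis antigens. The 9 GAGE, 2 XAGE and 3 PAGE genes encode small, related, largely disordered proteins. The 3 CTAG genes include CTAG1A and CTAG1B, which both encode NY-ESO-1, among the most immunogenic of these antigens. The 3 SPANX genes encode sperm nuclear proteins, the 3 RHOXF genes are reproductive homeobox factors, and PRAME is a leucine-rich substrate receptor of a cullin ubiquitin ligase that represses retinoic acid signalling. The rule also takes 6 CTAGE genes, which belong to the MIA family of secretory cargo proteins and are counted apart here. No SSX gene was among the rows analysed here. Of the 52 genes, 43 lie on the X chromosome and 9 elsewhere, the latter being the 6 CTAGE genes, MAGEF1, MAGEL2 and PRAME.

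Sequence decides how far these genes can be told apart by short reads, so a stretch of a pair that can be separated is shown first. MAGEA3 (GRCh38 chrX:152698742-152702347, plus strand in the deposited annotation) and MAGEA6 (chrX:152766136-152769689, minus strand) have coding sequences of 945 bases each in GENCODE release 29, and 18 of those bases differ. Coding bases 804 to 923 hold 6 of the differences and lie at chrX:152701636-152701755 in MAGEA3 and chrX:152766728-152766847 in MAGEA6. Capitals mark the bases that differ:
MAGEA3: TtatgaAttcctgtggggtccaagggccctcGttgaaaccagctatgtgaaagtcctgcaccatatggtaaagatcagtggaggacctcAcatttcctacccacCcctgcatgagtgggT
MAGEA6: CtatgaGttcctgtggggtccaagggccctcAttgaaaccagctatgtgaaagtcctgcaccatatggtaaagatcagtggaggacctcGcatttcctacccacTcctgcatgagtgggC
Other pairs offer less. The coding sequences of MAGED4 and MAGED4B (2274 bases), of MAGEA2 and MAGEA2B (945 bases), of XAGE1A and XAGE1B (246 bases) and of GAGE12F and GAGE12G (354 bases) are identical, and those of RHOXF2 and RHOXF2B (867 bases) differ at 2 bases.

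Over the longest coding transcript of each gene, the share of 100-base windows that occur letter for letter in a transcript of another gene was 36.1% for MAGEA3 and MAGEA6, 79.8% for RHOXF2 and 83.7% for CTAG1A. It reached 98.7% for MAGED4 and 100% for MAGED4B, MAGEA2B, XAGE1A, XAGE1B and GAGE12G. It was 0 for MAGEA1, MAGEA4, MAGEA12, PRAME, MAGED1 and MAGED2. A read from such a window can be divided among copies only by estimation, so values of single copies are uncertain and sums of copies are given beside them.

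Because promoter methylation is the switch usually described for these genes, the CpG dinucleotides in the 250 bases upstream of the RefSeq transcription start were counted. A sequence was at hand for 44 of the 52 genes. Windows of 3 genes are shown, in the sense direction of each gene on GRCh38.p14, with every CpG in capitals: GAGE2A (chrX:49589246-49589495, plus strand) and the first start of MAGEA4 (chrX:151912224-151912473, plus strand), both highly expressed in H196, and MAGEB2 (chrX:30215313-30215562, plus strand), which was silent there.
GAGE2A: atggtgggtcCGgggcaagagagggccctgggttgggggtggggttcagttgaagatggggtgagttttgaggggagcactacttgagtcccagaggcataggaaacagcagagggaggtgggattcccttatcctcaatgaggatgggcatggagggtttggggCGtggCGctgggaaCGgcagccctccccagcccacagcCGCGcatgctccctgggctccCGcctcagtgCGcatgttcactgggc
MAGEA4: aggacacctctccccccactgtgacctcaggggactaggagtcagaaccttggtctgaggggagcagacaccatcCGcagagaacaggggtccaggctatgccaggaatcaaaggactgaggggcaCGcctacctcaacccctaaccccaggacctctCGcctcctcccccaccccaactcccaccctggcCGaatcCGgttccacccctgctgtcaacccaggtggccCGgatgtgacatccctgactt
MAGEB2: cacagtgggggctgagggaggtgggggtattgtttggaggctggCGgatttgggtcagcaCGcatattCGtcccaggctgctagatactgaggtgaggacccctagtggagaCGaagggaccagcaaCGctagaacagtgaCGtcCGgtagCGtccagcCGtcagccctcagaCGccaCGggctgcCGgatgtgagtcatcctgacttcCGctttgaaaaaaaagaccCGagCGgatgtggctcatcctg
The silent MAGEB2 held 15 CpG in this window, against 8 for GAGE2A and 6 for the start of MAGEA4 shown, whose other 4 starts held 7, 11, 12 and 14. Taking the richest start of each gene, the 19 cancer-testis genes expressed in H196 held 7 to 15 CpG with a median of 10, and the 12 under 1 FPKM or not listed there held 1 to 18 with a median of 7.5. The median over all 27305 genes with a promoter sequence was 12. The letters CGGAAG, a form of the core bound by ETS factors, were found on either strand in 2 of the 19 expressed genes (MAGEA4 and PRAME) and 1 of the 12 others (MAGEB2), and in 19.4% of all promoters. No methylation was measured in these samples, and the counts describe sequence only.

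Before the levels, the labels were checked. All 12 fibroblast markers on the list used were at 1 FPKM or more in MRC5_Mo, with a summed level of 6032 to 6707 FPKM per library, against 3.52 to 4.49 FPKM over the H196 libraries, where COL1A2, COL3A1, LUM, PDGFRA and PDGFRB stayed under 0.1 FPKM. Of 10 neuroendocrine markers, 3 reached 1 FPKM in H196: CHGB, SYP and DLL3. The epithelial list did not set H196 apart. Of its 8 markers, 2 (KRT8 and KRT18) reached 1 FPKM in H196 and 4 (also KRT19 and CLDN4) in MRC5_Mo. FPKM is the level scaled by gene length and library size, and is used wherever genes are compared with each other. CPM, a gene's count scaled to the library total alone, is used for sums and between libraries. Library totals ran from 16073597 to 19170560 counts. MRC5_CoH196 libraries 1 and 2 held the most reads of genes restricted to H196. Where a value is given without them, MRC5_CoH196 is 1 library, and the spread comes from the other groups on the assumption that this library varied as they did.

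Some of the cancer-testis families were highly expressed in H196, while no MAGEB, PAGE or SPANX gene reached 1 FPKM. Of the 49 genes listed, 31 had a mean of at least 1 FPKM in H196_Mo or H196_Co, against 72.5% of all genes in that table. They were 24 of the 38 genes of the cancer-testis families proper and 7 of the 8 type II MAGE genes, while none of the CTAGE genes reached 1 FPKM. The GAGE genes stood highest. GAGE2A was at 1860, 1965 and 2146 FPKM in the 3 H196_Mo libraries, and at 2050, 1817 and 1961 FPKM in the H196_Co libraries, 57th of 16076 genes by its mean in H196_Mo. The groups overlapped. GAGE1 followed at 1924 ± 220.2 FPKM (SD, n = 3) in H196_Mo, and GAGE12G and GAGE12F, which could not be told apart, at 833 ± 112 and 828 ± 115 FPKM. Summed over its 9 genes the family took 0.175% of all counts in H196_Mo and 0.174% in H196_Co.

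**Figure D1:**
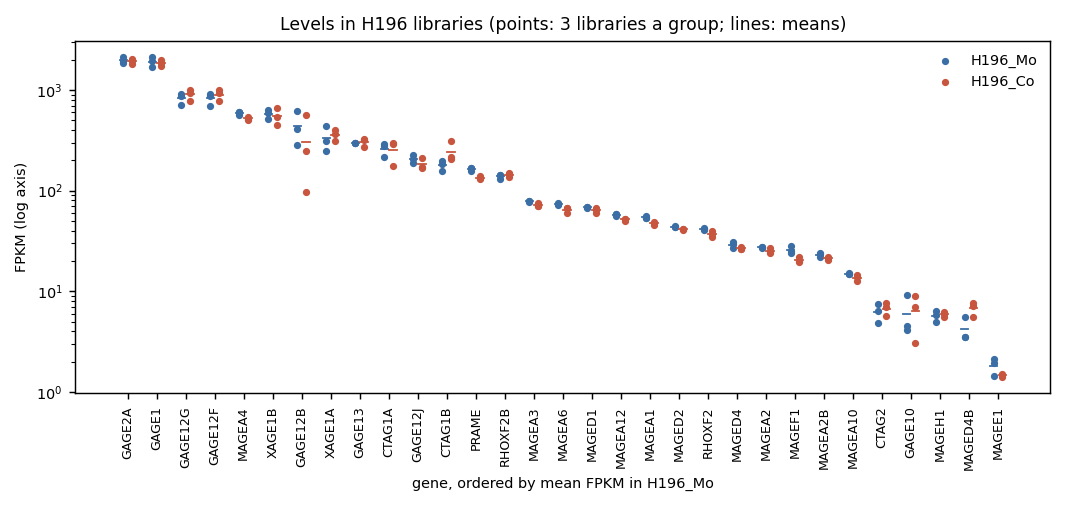
FPKM on a log axis of the 31 genes at 1 FPKM or more in H196, in each of 3 H196_Mo (blue) and 3 H196_Co (red) libraries, with lines at the means. Levels span from 1990 FPKM for GAGE2A and 1924 FPKM for GAGE1 to 1.83 FPKM for MAGEE1, and the points of GAGE12B, XAGE1A, CTAG1A and GAGE10 lie farther apart within a group than those of the MAGEA genes.

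Within the MAGEA family MAGEA4 was far above the rest. It was at 569, 607 and 611 FPKM in H196_Mo and at 519, 505 and 545 FPKM in H196_Co, and every H196_Co library was below every H196_Mo library. MAGEA3 was at 78.3 ± 1.03 FPKM and MAGEA6 at 73.4 ± 2.12 FPKM (H196_Mo, SD, n = 3). MAGEA12 was at 57.9 ± 1.55 FPKM and MAGEA1 at 54.5 ± 1.79 FPKM, and the ranges of these neighbours did not meet those of MAGEA3 and MAGEA6. MAGEA2, MAGEA2B and MAGEA10 ran from 14.8 to 27.9 FPKM over the H196_Mo libraries. MAGEA9 had at most 1 count in any H196 library, and the joint transcript MAGEA10-MAGEA5, which shares exons with MAGEA10, was at 0.47 to 0.67 FPKM in H196_Mo. MAGEB2, MAGEB3 and MAGEB17 were at 5 counts or fewer in every H196 library.

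The other antigens used as therapeutic targets were also abundant. XAGE1B was at 578 ± 56.5 FPKM and XAGE1A at 333 ± 99.5 FPKM in H196_Mo (SD, n = 3), with identical transcripts over every 100-base window. The NY-ESO-1 genes CTAG1A and CTAG1B were at 261 ± 40.7 and 179 ± 19.2 FPKM, and their relative CTAG2 (LAGE-1) at 6.24 ± 1.34 FPKM. PRAME was at 155, 167 and 167 FPKM in H196_Mo and 130, 134 and 140 FPKM in H196_Co, with no overlap between the groups. RHOXF2B was at 139 ± 6.19 FPKM and RHOXF2 at 41.6 ± 0.885 FPKM, and without the scaling by length they were closer, at 135 ± 7.19 and 108 ± 2.5 CPM.

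Other cancer-testis genes were silent or near it, among them all PAGE and SPANX genes listed for H196. The PAGE genes PAGE1 and PAGE4 had at most 1 count and PAGE2B 1 to 6 counts in any H196 library. SPANXB1 had 0 to 5 counts, SPANXD at most 1 and RHOXF1 at most 2. GAGE12E had 1.81 counts in 1 library and none in the others, while 100% of its 100-base windows occur in other GAGE genes, so reads of that gene could not have been assigned to it with certainty. Counts of 3 correspond to 0.187 CPM in the H196 library with the lowest total, which limits how far these genes can be called silent. Intervals and floors of this kind cover counting error only.

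In MRC5 the families were off. Of the 43 genes listed in the MRC5 table, 33 had no more than 3 counts in any MRC5_Mo library, and 30 in MRC5_CoH69. Without the type II MAGE and CTAGE genes, 28 of 29 were at or under that floor in both groups, MAGEB17 being the exception at 3, 5 and 9 counts in MRC5_Mo and 4, 6 and 6 in MRC5_CoH69. Over all genes of that table the share at the floor was 16.4% in MRC5_Mo. Of the 24 cancer-testis genes expressed in H196, 23 were at the floor in MRC5_Mo and 1, GAGE10, was not in the rows of the MRC5 table analysed here, and absence of a row is not a count of 0. Among all 11633 genes in both tables with 1 FPKM in H196, 3.15% were at the floor in MRC5_Mo.

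For 21 of these genes no MRC5_Mo library held any count, and H196_Mo was then higher by a bound set against 3 counts per library (0.162 CPM). The bounds ran from at least 27.4-fold for CTAG2 to at least 5420-fold for MAGEA4, with a median of 685. GAGE2A was at least 3420-fold, GAGE1 at least 2920-fold and PRAME at least 1980-fold higher. The genes passed the filter on low counts only through H196, so a count of significant genes among them was bound to be high and is not used. The cell line and the deposited table cannot be told apart in this comparison, since each line was processed into its own table.

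Most type II MAGE genes showed the reverse. MAGED1, a p75 neurotrophin receptor partner, was at 67.1, 68.6 and 69.3 FPKM in H196_Mo and at 323, 320 and 318 FPKM in MRC5_Mo, with no overlap. On the log2 scale of edgeR's quasi-likelihood fit it was lower in H196_Mo by 2.66 ± 0.0535 (SE; log2 fold change -2.66, adjusted p = 1.54e-26). MAGED2, whose loss causes a transient antenatal Bartter syndrome, was lower too (log2 fold change -2.32 ± 0.0494, adjusted p = 6.02e-26), as was MAGEH1, with -1.72 ± 0.111 (adjusted p = 2.28e-14). MAGEL2, which guides retrograde trafficking with TRIM27 and USP7, had at most 1 count in any H196 library and 6 to 11 counts in MRC5_Mo. MAGED4 was lower in H196_Mo (log2 fold change -1.57 ± 0.0578, adjusted p = 3.2e-20), and the sum of MAGED4 and MAGED4B likewise (-1.43 ± 0.0534, adjusted p = 2.03e-20), while MAGED4B alone did not differ detectably (0.19 ± 0.266, adjusted p = 0.51). MAGEE1 was higher in H196_Mo by 0.66 ± 0.150 (adjusted p = 0.000217), a call lost without H196_Mo library 1, and MAGEF1 had 0.10 ± 0.0736 (adjusted p = 0.204). By this measure 6 of the 8 type II genes changed, 1 higher and 5 lower, against 61.7% of all 13578 genes tested, 31.5% higher and 30.2% lower. MAGEL2 is among the 5 lower, but it passed the filter on low counts only through MRC5, so nothing is read from its call. Scaling by library total alone put H196_Mo 0.44 higher on the log2 scale, against MRC5_Mo, than the fit did.

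**Figure D2:**
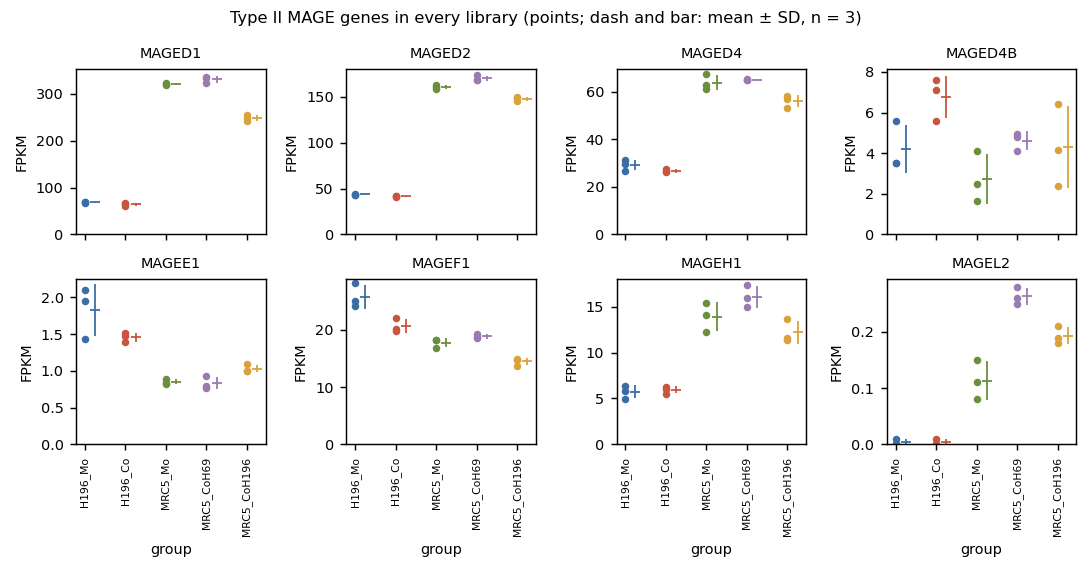
FPKM of the 8 type II MAGE genes in each library of the 5 groups, with the mean and SD (n = 3) beside the points. MAGED1, MAGED2, MAGED4 and MAGEH1 were higher in every MRC5 library than in every H196 library, MAGEE1 was lower, and MAGED4B overlapped between lines.

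The next question was whether co-culture with fibroblasts changed these genes in H196. Of the 52 genes, 32 passed the filter on low counts and were tested. A gene was called where the Benjamini-Hochberg adjusted p was under 0.05 and the log2 fold change beyond 0.58 in either direction. The 1 gene called was MAGED4B, against 3.86% of all 12806 genes tested, and 2, MAGED4B and CTAG1B, had an adjusted p under 0.05, against 19.8% of all genes. The median log2 fold change was -0.02 over the 32 genes and -0.001 over all genes. At an unadjusted p under 0.05 there were 4 of the 32.

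**Figure D3:**
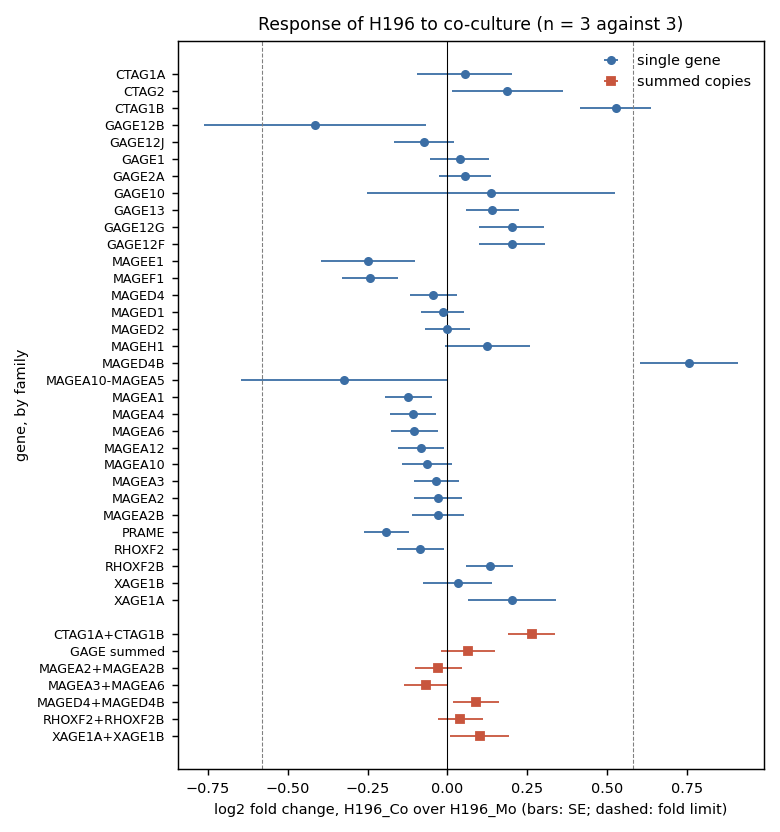
Log2 fold change of H196_Co over H196_Mo with its SE for 32 single genes (circles) and 7 sums of near-identical copies (squares), n = 3 against 3, with dashed lines at the fold limit of 0.58. MAGED4B (0.75) lies beyond the limit as a single gene, and none of the sums does.

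Both genes that passed belong to pairs of near-identical copies. MAGED4B was at 3.51, 3.52 and 5.57 FPKM in H196_Mo and 7.1, 5.59 and 7.6 FPKM in H196_Co. The groups did not overlap, but the highest H196_Mo library lay next to the lowest H196_Co library. Its log2 fold change was 0.75 ± 0.153 (SE, adjusted p = 0.00175), that of MAGED4 was -0.04 ± 0.0745 (adjusted p = 0.714), and that of their sum was 0.09 ± 0.0726 (adjusted p = 0.414). The summed level was 75.3 ± 2.80 CPM in H196_Mo and 76.1 ± 3.91 CPM in H196_Co (SD, n = 3). All of the 100-base windows of MAGED4B occur in MAGED4, and the call on MAGED4B was lost when the copies were summed.

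CTAG1B was at 91.9, 89.2 and 75.8 CPM in H196_Mo and 102, 150.0 and 100.2 CPM in H196_Co, so that every H196_Co library was above every H196_Mo library. CTAG1A ran the other way from library to library, at 102, 139 and 141 CPM in H196_Mo and 144, 86.4 and 146 CPM in H196_Co. The library lowest in CTAG1A within each group was the highest in CTAG1B. The coefficient of variation over the 3 H196_Co libraries was 27% for CTAG1A and 24.1% for CTAG1B, and 2.28% for their sum. The log2 fold change was 0.53 ± 0.111 for CTAG1B (adjusted p = 0.00237), 0.05 ± 0.148 for CTAG1A (adjusted p = 0.83) and 0.26 ± 0.0741 for the sum (adjusted p = 0.0163). The NY-ESO-1 transcript summed over both genes rose by less than the fold limit, from 213 ± 17.2 to 243 ± 5.53 CPM. Without H196_Co library 1 CTAG1B alone had 0.61 (adjusted p = 0.00327) and without H196_Co library 3 0.62 (adjusted p = 0.00161), both beyond that limit.

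**Figure D4:**
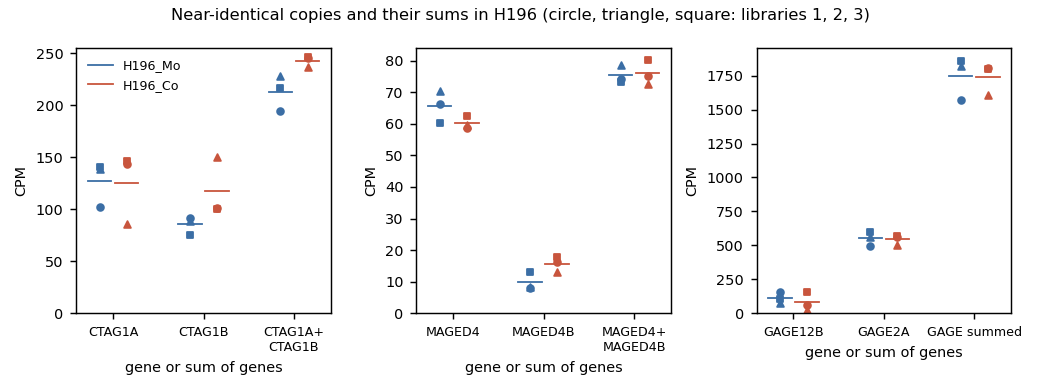
CPM in each H196_Mo (blue) and H196_Co (red) library, with lines at the means, for CTAG1A and CTAG1B and their sum, MAGED4 and MAGED4B and their sum, and GAGE12B and GAGE2A beside the sum of the 9 GAGE genes. Marker shapes stand for replicate numbers, which do not pair the groups. CTAG1A and CTAG1B moved apart between libraries, and over the H196_Co libraries the coefficient of variation of their sum was 2.28%. There those of MAGED4 (3.28%) and GAGE2A (6.25%) alone were no larger than those of their sums (5.14% and 6.57%). Over the H196_Mo libraries that of MAGED4 (7.65%) was larger than that of its sum (3.72%), and GAGE2A had 9% against 9.07%.

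Among the GAGE genes, GAGE12B varied widely between libraries. It was at 159.5, 77.0 and 110.0 CPM in H196_Mo and 64.2, 26.0 and 155 CPM in H196_Co, a coefficient of variation of 81.2% in the latter, and its log2 fold change of -0.41 ± 0.347 did not pass (adjusted p = 0.429). Without H196_Co library 3 it was called at -1.27 (adjusted p = 0.00412). The family summed to 1567, 1820 and 1860 CPM in H196_Mo and 1805, 1605 and 1801 CPM in H196_Co, and the log2 fold change of the sum was 0.07 ± 0.0847 (adjusted p = 0.624). GAGE2A had 0.05 ± 0.0813 (adjusted p = 0.68), with a 95% interval of -0.11 to 0.21.

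None of the 9 MAGEA genes tested, nor PRAME, passed the test in H196_Co. The log2 fold changes of the MAGEA genes ran from -0.03 for MAGEA2B to -0.32 for MAGEA10-MAGEA5, and that of MAGEA2B changed sign when 1 library was left out. In H196_Co the whole MAGEA family summed to 1201, 1177 and 1272 CPM against 1312, 1395 and 1400 CPM in H196_Mo, without overlap. CPM by library total put the whole of H196_Co 0.08 lower on the log2 scale than the fit did. The log2 fold change of MAGEA4 was -0.11 ± 0.0722 (adjusted p = 0.308), of MAGEA1 -0.12 ± 0.0723 (adjusted p = 0.248), of MAGEA3 -0.04 ± 0.0699 (adjusted p = 0.762) and of MAGEA6 -0.10 ± 0.0740 (adjusted p = 0.341). The sum of MAGEA3 and MAGEA6 had -0.07 ± 0.0685 (adjusted p = 0.517). PRAME had -0.19 ± 0.0697 (adjusted p = 0.0584), and its 95% interval ran from -0.33 to -0.05. Leaving out 1 library at a time gave PRAME adjusted p-values from 0.0288 to 0.221 and log2 fold changes from -0.24 to -0.17.

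Among the remaining genes, MAGEF1, which works with the NSE1 ligase on an iron-sulfur assembly protein, was at 24.2, 28.2 and 25.1 FPKM in H196_Mo and 20.2, 19.7 and 22.1 FPKM in H196_Co. The groups did not overlap, and its log2 fold change was -0.24 ± 0.0874 (adjusted p = 0.0552). RHOXF2 (-0.09 ± 0.0737, adjusted p = 0.445) and RHOXF2B (0.13 ± 0.0741, adjusted p = 0.22) did not pass, nor did their sum (0.04 ± 0.0709, adjusted p = 0.732). XAGE1A had 0.20 ± 0.139 (adjusted p = 0.325), or 0.47 without H196_Mo library 3 (adjusted p = 0.00549), and the sum of both XAGE1 genes 0.10 ± 0.0927 (adjusted p = 0.475). A p that misses the threshold does not show that co-culture left these genes as they were.

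The cancer-testis reads in co-cultured MRC5 fibroblasts were most abundant in MRC5_CoH196 libraries 1 and 2. MAGEA4 had no count in any MRC5_Mo or MRC5_CoH69 library and 56, 67 and 4 counts in MRC5_CoH196 libraries 1, 2 and 3. GAGE1 had 37.0, 48.7 and 2.66 counts there, PRAME 19, 28 and 2, and XAGE1B 13.3, 21.5 and 2, and none of these had a count in the other MRC5 groups. Libraries 1 and 2 were high and library 3 was near the floor for each gene. Members with no more than 3 counts in every library numbered 33 of 43 in MRC5_Mo and 10 in MRC5_CoH196, where 15.1% of all genes were at that floor, and of the 23 expressed in H196 and at the floor in MRC5_Mo, 2, CTAG2 and XAGE1A, were at the floor there too.

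These counts were set beside those of other genes. Outside the families, 73 genes reached 20 CPM throughout the H196 libraries while staying below 0.5 CPM throughout MRC5_Mo. Their summed level in MRC5_CoH196 was 36.8, 42.3 and 22.4 CPM in the 3 libraries, or 0.921%, 1.06% and 0.562% of the H196_Co level, against 0.224% to 0.248% in MRC5_Mo and 0.21% to 0.26% in MRC5_CoH69. The 22 members that met the same limits summed to 16.8, 19.5 and 1.304 CPM, or 0.432%, 0.502% and 0.0336% of their H196_Co level. In MRC5_Mo and MRC5_CoH69 their share was at most 0.00138%. With stricter limits (50 CPM in H196 and under 0.2 CPM in MRC5_Mo) the 11 genes left outside the families were at 0.45%, 0.455% and 0.0775% in MRC5_CoH196. Over the 22 members the median share was 0.45% in library 1, 0.579% in library 2 and 0.0285% in library 3. The part that RNA of H196 cells played in these counts was not tested, and fewer cells of a type and less RNA per cell cannot be told apart in bulk samples.

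**Figure D5:**
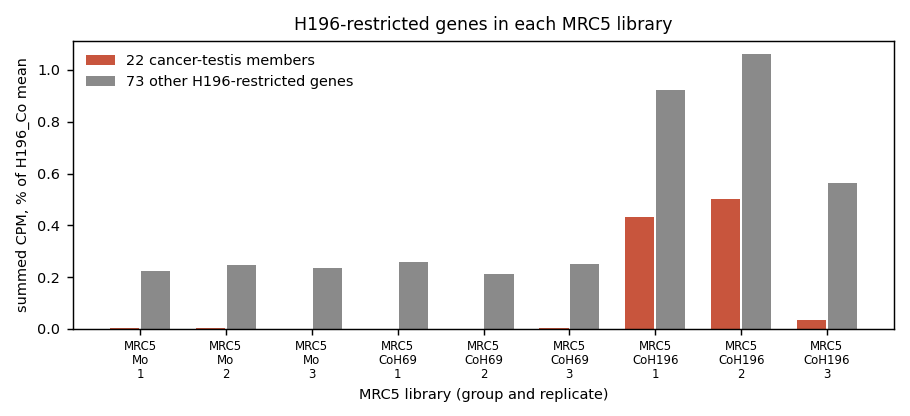
Summed CPM in each MRC5 library as a percent of the mean in H196_Co, for 22 cancer-testis genes (red) and 73 other genes restricted to H196 (grey). Both sets were highest in MRC5_CoH196 libraries 1 and 2, and the cancer-testis genes were near 0 in MRC5_Mo and MRC5_CoH69.

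No cancer-testis gene passed the filter on low counts in the MRC5 fit, so that the members tested there were the 8 type II MAGE genes. In MRC5_CoH196 against MRC5_Mo 2 were called, both higher, against 31.9% of all 12819 genes, or 17.2% higher. MAGED4B was at 1.63, 4.09 and 2.48 FPKM in MRC5_Mo and 6.42, 4.15 and 2.4 FPKM in MRC5_CoH196, groups that overlapped. Its log2 fold change was 0.84 ± 0.247 (SE, adjusted p = 0.0038), that of MAGED4 was -0.01 ± 0.0457 (adjusted p = 0.811), and that of the sum was 0.04 ± 0.0422 (adjusted p = 0.453). Without MRC5_CoH196 libraries 1 and 2 the log2 fold change of MAGED4B was -0.02. MAGEL2 had 11, 8 and 6 counts in MRC5_Mo and 16, 14 and 14 in MRC5_CoH196, without overlap, and its log2 change was 0.96 ± 0.333 (adjusted p = 0.0119). It was 0.90 without libraries 1 and 2, which leaves 1 library. MAGEL2 passed the filter on low counts only through the co-cultured MRC5 groups, so nothing is read from its call.

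At an adjusted p under 0.05 alone, which 74.3% of all genes reached, MAGEE1 rose (0.45 ± 0.153, adjusted p = 0.0106) and MAGED1 fell (-0.19 ± 0.0401, adjusted p = 0.000117). Without libraries 1 and 2 MAGEE1 had 0.55 and MAGED1 -0.14. MAGED1 was at 323, 320 and 318 FPKM in MRC5_Mo and at 242, 247 and 255 FPKM in MRC5_CoH196, without overlap. MAGED2 had 0.05 ± 0.0394 (adjusted p = 0.26) in the fit and -0.12 with limma on log2(FPKM + 1) (adjusted p = 0.00456), and scaling by library total alone put MRC5_CoH196 0.17 lower on the log2 scale than the normalisation of the fit did. MAGEF1 had -0.12 ± 0.0641 (adjusted p = 0.0895).

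With H69 as the partner, MAGEL2 was the 1 member called, against 0.554% of all genes tested. It had 20, 21 and 19 counts in MRC5_CoH69, above all MRC5_Mo libraries, and its log2 change was 1.26 ± 0.312 (adjusted p = 0.0138). The call was lost in several alternatives, such as DESeq2 and leaving out MRC5_CoH69 library 2. Here too MAGEL2 passed the filter on low counts only through the co-cultured groups, so nothing is read from the call. Leaving out MRC5_Mo library 2, MAGED4B was called in its place. MAGED4B had 0.78 ± 0.245 (adjusted p = 0.0564), and its sum with MAGED4 0.08 ± 0.0419 (adjusted p = 0.326). Between MRC5_CoH196 and MRC5_CoH69 none of the 8 genes was called by edgeR, against 28.2% of all genes, although 4 had an unadjusted p under 0.05. Those 4 also had an adjusted p under 0.05, as did 72.3% of all genes: MAGEE1 was higher with H196 (0.47 ± 0.154, adjusted p = 0.00865), and MAGED1 (-0.25 ± 0.0401, adjusted p = 4.44e-06), MAGEF1 (-0.22 ± 0.0636, adjusted p = 0.00383) and MAGEH1 (-0.23 ± 0.0879, adjusted p = 0.0202) were lower. Without MRC5_CoH196 libraries 1 and 2 these were 0.57 for MAGEE1, -0.19 for MAGED1, -0.275 for MAGEF1 and -0.315 for MAGEH1, and MAGED4B had -0.79. The comparisons with MRC5_Mo share those libraries.

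Whether co-culture with each other acted differently on the 2 lines was tested as an interaction in the joint fit. Per the paper, inducing cells sat in the insert and responding cells in the well, so the 2 responses may come from separate set-ups. Of 32 members tested 17 were called, beside 24.7% of all 13578 genes, or 12.1% lower. All but MAGEE1 entered the test only through H196 and were at the floor in MRC5_Mo, so that a few reads in MRC5_CoH196 set the outcome, and nothing is read from this count. MAGEE1, with counts in every library, had a difference of -0.67 ± 0.213 (adjusted p = 0.00981), or -0.82 without MRC5_CoH196 libraries 1 and 2. Its call was lost without H196_Mo library 1 and with limma on log2(FPKM + 1). The response of MAGEE1 within each line was not called, at -0.25 in H196 and 0.45 in MRC5.

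Genes of the machinery around these families were counted from lists. Of 25 genes for DNA methylation and chromatin silencing, none was called in H196_Co by edgeR, against 3.86% of all genes, 2 passed the adjusted p alone in each direction and 8 had an unadjusted p under 0.05. Their median change was -0.09 on the log2 scale, against -0.001 over all genes. DNMT1, the maintenance DNA methyltransferase, was at 68.7 ± 0.331 FPKM in H196_Mo and 34.6 ± 2.37 FPKM in MRC5_Mo (SD, n = 3), without the normalisation of the fit. Of the 25, 14 were called in H196_Mo against MRC5_Mo, against 61.7% of all genes. They were 12 higher and 2 lower, against 31.5% and 30.2% of all genes. In MRC5_CoH196 8 of the 25 were called in either direction, a share near the 31.9% of all genes. Among the 4092 genes called in this comparison, 2207 were higher. By direction 1 of the 25 was higher, against 17.2% of all genes, and 7 were lower. The lowest were UHRF1, the reader that brings DNMT1 to replicated DNA (-1.36 ± 0.0482, adjusted p = 3.32e-18), L3MBTL2 (-1.28 ± 0.0641, adjusted p = 3.48e-15) and EZH2, the catalytic subunit of Polycomb complex PRC2 (-1.11 ± 0.0873, adjusted p = 2.67e-11). Without libraries 1 and 2 UHRF1 had -1.38, L3MBTL2 -1.41 and EZH2 -1.36. Of 16 ligase partners of MAGE proteins, 14 were tested in H196 and none was called there by edgeR, against 3.86% of all genes. An adjusted p under 0.05 alone was reached by 3, all lower, against 19.8% of all genes, and 4 had an unadjusted p under 0.05. TRIM28, the ligase bound by MAGEA3 and MAGEA6, was at 128 ± 5.40 FPKM in H196_Mo and 122 ± 4.52 FPKM in H196_Co.

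Other germline genes, outside the families, were partly on in H196 as well. Of 73 on the list, 28 were tested and 4 were called in H196_Co, against 3.86% of all genes, all higher: LY6K (1.14 ± 0.193, adjusted p = 0.000327), PIWIL2 (1.11 ± 0.342, adjusted p = 0.0269), TEX19 (1.06 ± 0.195, adjusted p = 0.00075) and the meiotic cohesin SMC1B (0.83 ± 0.162, adjusted p = 0.00118). Their levels were low. LY6K was at a mean of 1.67 FPKM in H196_Mo and 3.55 FPKM in H196_Co, and TEX19 at 1.02 and 2.02 FPKM. SMC1B was at 0.827 and 1.36 FPKM, and PIWIL2 at 0.107 and 0.223 FPKM. Over the 28 the median change was 0.07 on the log2 scale. CTCFL (BORIS), a testis relative of CTCF, was at 8.36 ± 0.162 FPKM in H196_Mo and 9.84 ± 0.182 FPKM in H196_Co (0.34 ± 0.0792, adjusted p = 0.00457). CSAG1, whose gene lies among the MAGEA genes, was at 68.9 ± 3.51 FPKM in H196_Mo and listed at 0 in MRC5_Mo.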

How the data were processed

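Libraries were grouped by their titles, with 3 per group and none left out. Per the labels and methods, the authors filtered the reads and aligned them with HISAT and Bowtie2 2.3.4.3 against GRCh38.p13, and RSEM 1.3.1 is named among the tools. The authors deposited expected counts (92.1% and 93.7% whole in the H196 and MRC5 tables) without normalization, and FPKM, scaled by the authors for gene length and library size. Another 30 per-library columns, the authors' comparisons and a second copy of each table were not used. Neither table lists a gene without a count. Expected counts were rounded and tested two-sided with edgeR 4.0.16 in R 4.3.3 (TMM, filterByExpr, quasi-likelihood), all groups of a table together, and in a joint fit of both tables for comparisons across lines. SE was derived from the fold change and its F statistic. Checks used limma 3.58.1 and DESeq2 1.42.0, and scripts were tested on simulated data. CPM uses library totals of 16073597 to 19170560 counts. The members, lists and tests were chosen with earlier results of these data known. Any member tested, at 1 FPKM or more, or called could be named, and up to 4 called genes per other list. Genes outside that rule, DNMT1, TRIM28, CTCFL and CSAG1, were chosen after their values were seen. Promoter sequences are RefSeq's (GRCh38.p14), and transcripts GENCODE's, and depth limits what a gene near the floor can show.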

Additional observations from a re-analysis of the deposited data

Results flagged for a closer look

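The members below were singled out because the test of the difference between 2 lines in response to co-culture with each other (edgeR's interaction, adjusted p under 0.05 and beyond 0.58 on the log2 scale) was passed. Each value is the log2 response of H196 minus that of MRC5. Among the MAGEA genes the difference was -8.73 for MAGEA4, -6.27 for MAGEA6, -5.93 for MAGEA3, -5.82 for MAGEA12, -5.16 for MAGEA2, -4.71 for MAGEA2B, -4.10 for MAGEA10 and -4.01 for MAGEA1. Among the GAGE genes it was -8.12 for GAGE2A, -8.07 for GAGE1, -5.89 for GAGE12J and -5.33 for GAGE13. It was -7.44 for PRAME, -6.82 for XAGE1B, -6.58 for RHOXF2 and -6.04 for RHOXF2B. These 16 genes entered the test only through H196 and were at or near 0 in MRC5_Mo, so that a few reads in MRC5_CoH196, most of them in libraries 1 and 2, set the outcome. Their fitted values depend on the prior count, are not bounds, and are not read as a response of either line. MAGEE1, with counts in every library, differed by -0.67, and its call was lost without H196_Mo library 1.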

How the results depend on the processing

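Near-identical copies summed and MRC5_CoH196 libraries 1 and 2 left out were alternatives chosen after seeing the data. In H196_Co against H196_Mo, 494 genes and 1 member were called. These became 147 and 0 with a fold limit of 1 and 2538 and 2 with none. Genes became 195 with limma on log2(FPKM + 1), and members became 2 without the filter on low counts, 0 with copies summed and 1 to 3 leaving out 1 library. In MRC5_CoH196 against MRC5_Mo, 4092 genes and 2 members became 1564 and 0 with a fold limit of 1 and 9522 and 4 with none. The members became 24 without the filter, 1 with at least 10 counts in every library, 1 with copies summed, 0 with DESeq2, 0 with limma at either pseudocount, 0 without libraries 1 and 2, and 1 to 9 leaving out 1 library. In MRC5_CoH69 against MRC5_Mo, 71 genes became 9 with a fold limit of 1, 859 with none, 40 with DESeq2 and 18 with limma on log2(FPKM + 1). The 1 member became 0 with DESeq2, where the adjusted p was NA, 0 with limma on log2(FPKM + 1), 2 without the filter, 2 fitting the groups compared alone, and 0 to 1 leaving out 1 library. Between the co-cultures, 3618 genes became 1353 and 9269, and 0 members became 4 with no fold limit, 20 without the filter, 1 without libraries 1 and 2, and 0 to 7 leaving out 1 library. In H196_Mo against MRC5_Mo, 30 members became 5 with at least 10 counts in every library and 19 with copies summed. In the interaction, 3360 genes became 1256 and 6953, and 17 members became 1 with at least 10 counts in every library, 6 with limma on log2(FPKM + 1), and 5 without libraries 1 and 2. Of 43 members, 10 at the floor in MRC5_CoH196 became 2 with no count and 19 under 10 counts. The mean share of H196-restricted genes there, 0.848%, became 0.327% with the stricter limits.

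Among single members, the cases in which the sign turned include the following. With limma, CTAG1A had -0.056 and -0.055 at pseudocounts of 0.1 and 1, GAGE2A -0.034 at both and MAGED2 in MRC5_CoH196 -0.121 and -0.120. Leaving out 1 library gave -0.091 to 0.266 for CTAG1A, -0.027 to 0.121 for GAGE2A, -1.27 to 0.01 for GAGE12B and -0.094 to 0.013 for MAGED4 in H196, -0.044 to 0.029 for MAGED4 in MRC5_CoH196, and -0.076 to 0.591 for MAGED4B between the lines. It also turned leaving out 1 H196 library for GAGE1, GAGE10, GAGE12J, MAGEA2B (-0.0885 to 0.00867), MAGED1, MAGED2 and XAGE1B, none of which passed. Without MRC5_CoH196 libraries 1 and 2, which leaves 1 library assumed to vary like the other groups, MAGED4 had 0.026 and MAGED4B -0.022 there, and the interaction had 1.82 for MAGEA1 and 0.12 for RHOXF2B. Beyond what the copies, fold limits and left-out libraries change by construction, the cause was not tested. Of the other values of single members, 739 stayed on their side of the threshold, 47 weakened and 8 strengthened.

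Replicate numbers did not pair the samples. With the replicate block, 471 genes and 1 member were called in H196_Co, 4088 and 2 in MRC5_CoH196, 70 and 2 in MRC5_CoH69, 3612 and 0 between the co-cultures, 8373 and 30 between the lines and 3337 and 18 in the interaction.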

Other observations

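Germline genes outside the families were also called in MRC5_CoH196 against MRC5_Mo, where 7 of 73 were tested and 5 were called by edgeR, against 31.9% of all genes. By direction 4 were higher, against 17.2% of all genes, and 1 was lower. Without MRC5_CoH196 libraries 1 and 2, which leaves 1 library assumed to vary like the other groups, 3 of 8 were called. Among the 5, PIWIL2, a PIWI protein of the piRNA pathway, had a log2 fold change of 3.49 ± 0.438 (SE, adjusted p = 1.04e-07). It stayed far under 1 FPKM, at a mean of 0.0267 FPKM in MRC5_Mo and 0.233 FPKM in MRC5_CoH196. PIWIL2 passed the filter on low counts only through MRC5_CoH196, so nothing is read from its call there. LY6K, a GPI-anchored testis protein, had 1.53 ± 0.142 (adjusted p = 5.65e-10) and was already at 3.60 FPKM in MRC5_Mo, against 8.50 FPKM in MRC5_CoH196. Without libraries 1 and 2 the log2 fold changes were 3.54 for PIWIL2 and 1.53 for LY6K. Both genes were called higher in H196_Co as well. Of the 12 fibroblast markers 4 were called in MRC5_CoH196, a share near the 31.9% of all genes. COL1A1, COL3A1 and FBN1 were lower and PDGFRB higher, and the part of such changes in these values was not tested.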
